A study of Homo sapiens with 9 samples.

Results

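The protein-coding zinc finger genes of chromosome 19 were described in 3 kinds of Huh-7 human hepatoma cells. Members were the protein-coding genes of chromosome 19 whose symbol is ZNF followed by a number, which gave 249 of the 58735 genes in the count table. On the short arm, 19p, there were 85 members and on the long arm, 19q, there were 164. The 265 protein-coding ZNF genes of the other chromosomes served for comparison. The libraries came from Huh-7 cells with the WT genotype, here called control, from Ako-3, a Huh-7 clone with the APOB gene knocked out by CRISPR/Cas9, and from Mko-3, a Huh-7 clone lacking MTTP, with 3 libraries of poly(A) RNA in each group. All the cells were kept overnight without serum before RNA was taken. Each knockout was 1 clone, so that the effect of the deleted gene and of the clone cannot be told apart, and the same 3 control libraries served both knockouts. The p values therefore measure the spread between libraries of 1 cell population each.

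Genes of this family encode proteins with rows of C2H2 zinc fingers, each a short loop held by a zinc ion that reads a few bases of DNA. Many also carry a KRAB box at the start of the protein, which recruits the corepressor TRIM28 and through it the histone methyltransferase SETDB1, so that the bound chromatin is silenced. Their targets are often transposable elements. The genes arose by repeated tandem duplication and lie side by side in clusters, and chromosome 19 holds more of them than any other human chromosome.

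Total counts ran from 14638727 to 20179760 per library. The targeted genes checked the labels. APOB stood at 224 ± 40.5 FPKM (SD, n = 3), that is fragments scaled to gene length and library size, in control and at 87.5 ± 6.11 in Ako-3 cells, and MTTP at 116 ± 5.24 in control and 16.0 ± 0.656 in Mko-3 cells. All 10 hepatocyte markers examined, among them ALB and HNF4A, had group means of at least 31.5 FPKM. Of 6 markers of leukocytes, endothelium and mesenchyme, PTPRC, CD68, VWF, DES and PDGFRB were below 1 FPKM in control and PECAM1 alone was above it, and CD68 had no count in any library. The summed level of the 6 was 9.70 to 10.8 FPKM in control, 13.9 to 14.5 in Ako-3 and 6.58 to 7.26 in Mko-3 libraries. Mitochondrial genes took 5.52 to 6.17% of counts in control, 7.06 to 7.40% in Ako-3 and 5.75 to 5.82% in Mko-3 libraries, and the part of either in the results was not tested.

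Ordered by start, 238 of the 249 members fell into 9 clusters, defined as runs of at least 5 members on 1 arm with neighbouring starts at most 1 Mb apart, and 11 lay outside them. Clusters 1 to 4 were on 19p and clusters 5 to 9 on 19q. In the hg38 coordinates of the count table, cluster 4, with 37 members, ran from ZNF101 to ZNF254 (chr19:19668796-24129961), cluster 6, with 26, from ZNF565 to ZNF573 (chr19:36182060-37817300), cluster 8, with 40, from ZNF175 to ZNF331 (chr19:51571298-53580269) and cluster 9, with 59, from ZNF628 to ZNF446 (chr19:55476332-58481230). The largest cluster thus lay near the end of 19q.

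The proteins that the canonical GENCODE transcripts of the members encode held a median of 12 C2H2 fingers, and the longest row, 36 fingers, was that of ZNF208 in cluster 4. A KRAB box was found in 210 of the 248 members with a protein, in 77 of 85 on 19p and in 133 of 163 on 19q, by a pattern widened after the data were seen. The stricter pattern chosen first found 168. A SCAN domain, a module through which such proteins pair, was found in ZNF444, ZNF274 and ZNF446.

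Promoter windows, which run from 250 bases before to 50 bases after a RefSeq start on GRCh38.p14, were at hand for 217 members by symbol, with the most upstream start taken for each gene. Some members, ZNF331 among them, have further starts downstream. The members' windows held a median of 20 CpG dinucleotides, against 13 over the windows of all 27305 genes. The 7 letters CCGGAAG, the core of the site that ETS family factors bind, were searched on both strands, chosen after windows had been read. They were present in 45.2% of the members' windows, in 34.0% of those of 212 ZNF genes on other chromosomes and in 10.6% of all windows. Of the 27 windows of members called lower in Ako-3 cells, defined further on, 12 held them, which is 44.4%, and of the 149 windows of the other tested members 46.3% did. Windows of 7 members are printed because the results turn on them: the 3 that fell furthest in Ako-3 cells (ZNF331, ZNF568 and ZNF528), ZNF880, which neighbours ZNF528, ZNF264 and ZNF548 from a long stretch of falling genes, and ZNF667, which was higher in Ako-3 cells. Capitals mark CCGGAAG or its reverse complement, and all are written 5′ to 3′ on the gene's own strand, ZNF667 on the minus strand and the others on the plus strand.
ZNF331 (chr19:53520764-53521063): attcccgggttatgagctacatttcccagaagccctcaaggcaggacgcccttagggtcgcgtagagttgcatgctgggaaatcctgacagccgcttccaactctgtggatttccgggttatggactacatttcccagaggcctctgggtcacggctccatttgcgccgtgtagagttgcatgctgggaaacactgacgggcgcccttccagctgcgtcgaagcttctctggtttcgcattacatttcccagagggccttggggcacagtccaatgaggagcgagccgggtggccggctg
ZNF568 (chr19:36916082-36916381): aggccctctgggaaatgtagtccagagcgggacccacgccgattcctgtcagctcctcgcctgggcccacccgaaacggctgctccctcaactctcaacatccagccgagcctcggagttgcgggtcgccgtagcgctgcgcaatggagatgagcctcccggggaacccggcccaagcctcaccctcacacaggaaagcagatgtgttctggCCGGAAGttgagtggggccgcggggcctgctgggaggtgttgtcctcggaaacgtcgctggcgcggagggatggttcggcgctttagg
ZNF528 (chr19:52397599-52397898): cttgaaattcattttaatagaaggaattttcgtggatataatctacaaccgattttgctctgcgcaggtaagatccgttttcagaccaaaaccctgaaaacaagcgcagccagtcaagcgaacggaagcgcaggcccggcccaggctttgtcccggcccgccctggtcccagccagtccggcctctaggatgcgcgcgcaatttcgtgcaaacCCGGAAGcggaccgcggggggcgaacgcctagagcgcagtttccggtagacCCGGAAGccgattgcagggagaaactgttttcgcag
ZNF880 (chr19:52369673-52369972): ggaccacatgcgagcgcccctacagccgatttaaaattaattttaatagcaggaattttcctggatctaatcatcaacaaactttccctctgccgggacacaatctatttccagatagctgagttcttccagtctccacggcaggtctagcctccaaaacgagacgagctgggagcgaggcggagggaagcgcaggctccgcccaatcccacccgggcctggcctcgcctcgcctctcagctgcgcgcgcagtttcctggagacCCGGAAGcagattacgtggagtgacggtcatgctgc
ZNF264 (chr19:57191250-57191549): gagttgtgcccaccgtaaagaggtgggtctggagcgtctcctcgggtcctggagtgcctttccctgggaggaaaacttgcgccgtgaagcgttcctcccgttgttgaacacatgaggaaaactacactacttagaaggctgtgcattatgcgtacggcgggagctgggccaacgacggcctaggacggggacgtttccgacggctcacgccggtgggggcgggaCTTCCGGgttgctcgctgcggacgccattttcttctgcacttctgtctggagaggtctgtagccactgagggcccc
ZNF548 (chr19:57389604-57389903): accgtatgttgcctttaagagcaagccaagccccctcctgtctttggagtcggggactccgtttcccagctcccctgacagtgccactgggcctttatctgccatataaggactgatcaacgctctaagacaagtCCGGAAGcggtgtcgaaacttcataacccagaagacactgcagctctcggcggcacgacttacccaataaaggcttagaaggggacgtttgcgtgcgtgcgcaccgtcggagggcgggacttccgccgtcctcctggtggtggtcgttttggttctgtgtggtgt
ZNF667 (chr19:56477296-56477595): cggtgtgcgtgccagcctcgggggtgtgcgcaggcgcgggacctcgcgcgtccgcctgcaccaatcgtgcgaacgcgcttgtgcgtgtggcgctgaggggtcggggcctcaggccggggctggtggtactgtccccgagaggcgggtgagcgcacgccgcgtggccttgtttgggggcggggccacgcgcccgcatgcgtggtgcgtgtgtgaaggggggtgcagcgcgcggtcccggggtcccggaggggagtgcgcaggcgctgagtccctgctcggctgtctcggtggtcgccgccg

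The windows of ZNF331 and ZNF667 held no such match, that of ZNF528 held 2 and the other 4 held 1 each. ZNF667 had the most CpG dinucleotides, 42, and ZNF331 the fewest, 17.

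Most members were weakly expressed in Huh-7 cells. With a mean above 1 FPKM taken as expressed, 108 of 249 members were expressed in control cells, 91 in Ako-3 cells and 101 in Mko-3 cells, and 13 had no count in any library. The median member stood at 0.770 FPKM in control, against 1.76 for ZNF genes on other chromosomes, of which 176 of 265 were expressed. On 19p the number expressed was 40 in control, 37 in Ako-3 and 39 in Mko-3 cells, and on 19q it was 68, 54 and 62. Most of the net drop in the number expressed from control to Ako-3 cells, 14 of 17 genes, was thus on 19q, which holds 164 of the 249 members. Of the ZNF genes on other chromosomes, 176 were expressed in control, 168 in Ako-3 and 174 in Mko-3 cells. In all, the members took up 0.217% ± 0.00276 (SD, n = 3) of the counts of control libraries, 0.180% ± 0.00393 in Ako-3 and 0.186% ± 0.00308 in Mko-3 cells. By this measure both arms were lower. Members on 19p took up 0.0697%, 0.0539% and 0.0600% in the same order, and those on 19q 0.147%, 0.126% and 0.126%. For ZNF genes on other chromosomes the shares were 0.532%, 0.492% and 0.498%. These shares were not scaled by TMM, as the counts in the tests were. As summed CPM, that is counts scaled to library size with TMM factors, all these falls were smaller. In control, Ako-3 and Mko-3 cells the mean sums were 669, 555 and 607 on 19p and 1412, 1302 and 1277 on 19q. For ZNF genes on other chromosomes they were 5104, 5071 and 5043, both falls within the control SD of 127 (n = 3).

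The 10 members with the highest level in control cells were ZNF787, ZNF358, ZNF444, ZNF146, ZNF581, ZNF524, ZNF428, ZNF414, ZNF579 and ZNF865, between 35.9 and 7.97 FPKM. None of them held a KRAB box, and 8 of them had at most 9 fingers. ZNF787 stood at 35.9 ± 3.27 FPKM (SD, n = 3) in control, 38.6 ± 1.40 in Ako-3 and 36.7 ± 1.69 in Mko-3 cells, ranges that overlapped. ZNF146, a protein made of little more than its fingers, stood at 21.0 ± 0.365, 16.2 ± 0.666 and 18.2 ± 0.889 FPKM in the same order. By cluster, the highest member in control was ZNF57 in cluster 1, ZNF358 in 2, ZNF791 in 3, ZNF714 in 4, ZNF792 in 5, ZNF146 in 6, ZNF428 in 7, ZNF160 in 8 and ZNF787 in 9. The median member of a cluster ranged from 0.356 FPKM in cluster 6, where 3 of 26 members were expressed, to 1.77 in cluster 2, where 10 of 16 were.

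**Figure D1:**
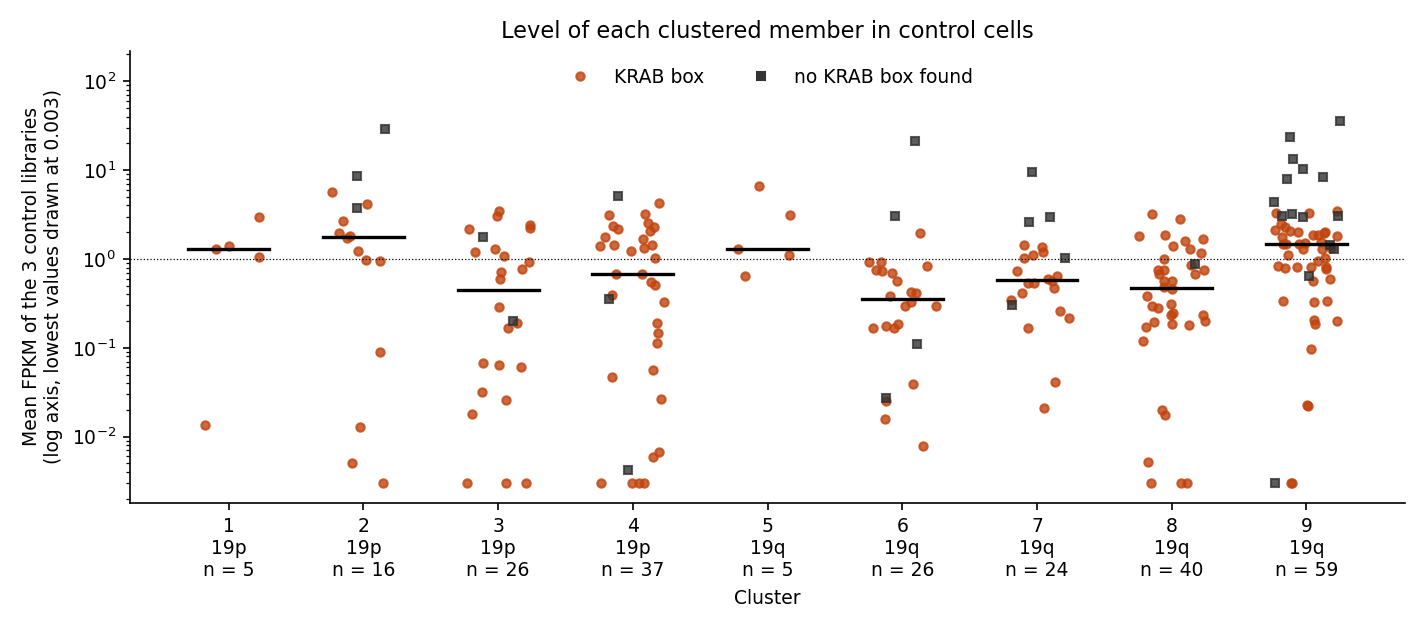
Mean FPKM of the 3 control libraries for each of the 238 clustered members, on a log axis, by cluster. Circles are members with a KRAB box, squares members in which none was found, and bars the cluster medians; the highest squares, such as ZNF787 and ZNF358, lie above most circles, and the dotted line is 1 FPKM.

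In Ako-3 cells some of the 19q zinc finger genes were lower than in control: of 134 tested, 63 were lower and 11 higher at an adjusted p not above 0.05. A gene was called when it differed by 1 or more on the log2 scale in either direction and its p from the edgeR quasi-likelihood test, adjusted after Benjamini and Hochberg over all genes tested, did not exceed 0.05. Of the 194 members tested, 28 were called lower, which is 14.4%, beside 5.00% of all 15787 genes tested. None was called higher, beside 3.52% of all genes; the count was also 0 with DESeq2 and at an unadjusted p under 0.05 with the same fold. The other 55 members did not pass the filter on low counts, and a member that passed only through its control libraries had to be lower, so these counts describe the members tested. In bulk RNA, fewer cells that express a gene and less RNA per cell cannot be told apart.

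By arm, 25 of 134 tested members were called lower on 19q, or 18.7%, and 3 of 60 on 19p, or 5.00%, the latter at the share of all genes. Of the ZNF genes on other chromosomes, 2 of 219 were called lower, or 0.913%. The median log2 fold change was -0.43 on 19q and -0.24 on 19p, against -0.05 for ZNF genes elsewhere and -0.01 for all genes. All other protein-coding genes of the arms had medians of 0.16 on 19q and 0.08 on 19p. Of these genes 32 of 365 were called lower on 19q, or 8.77%, and 21 of 374 on 19p, or 5.61%. Called higher were 17 on 19q and 14 on 19p. Those lying within a cluster differed by cluster. Their median was -1.20 over 4 tested genes in cluster 6, 0.28 over 19 in cluster 7 and 0.09 over 13 in cluster 9. Of these, 3, 2 and 3 were called lower, and 1 in cluster 9 was called higher. With adjusted p of at most 0.05 alone, 85 members were lower, 43.8% beside 24.4% of all genes, and 13 were higher, 6.70% beside 25.5%. By this rule 19p also held more lower members than the share of all genes. On 19p 22 of 60 were lower, or 36.7%, and 2 higher, or 3.33%. On 19q 63 of 134 were lower, or 47.0%, and 11 higher, or 8.21%. No test compared the sets with each other, since genes are not replicates.

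**Figure D2:**
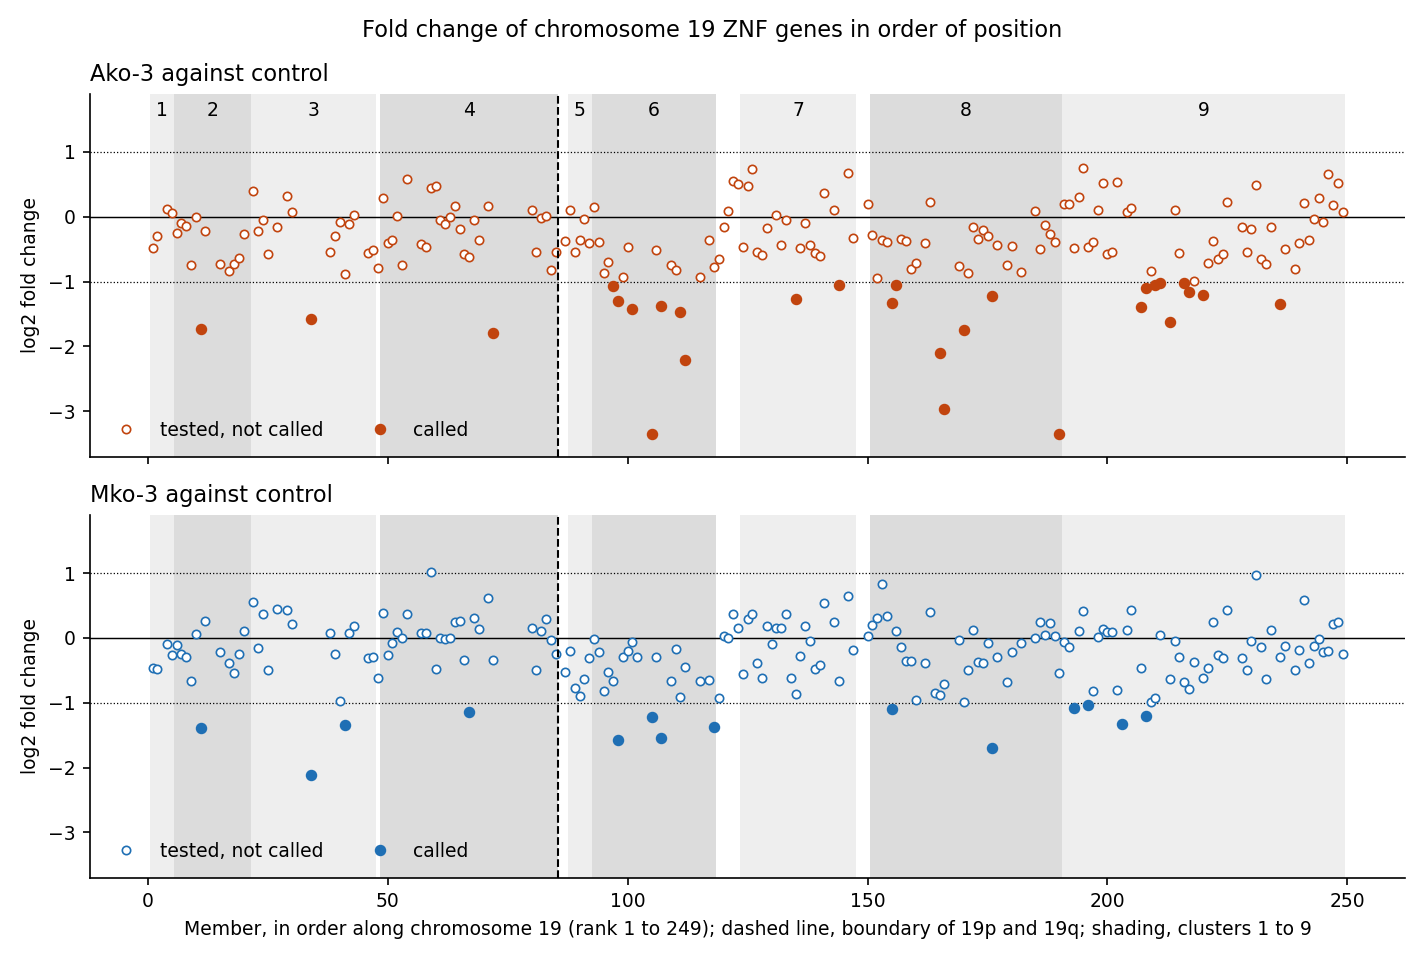
Fitted log2 fold change of each tested member against control, in order of position along chromosome 19 (x axis, rank 1 to 249), for Ako-3 (upper panel) and Mko-3 cells (lower panel). Filled points passed both the fold and the adjusted p threshold, dotted lines mark 1 and -1, shading marks clusters 1 to 9 and the dashed line parts 19p from 19q; the 28 calls in Ako-3 cells lie below -1 and gather in clusters 6, 8 and 9.

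The largest falls were of weakly expressed genes. ZNF568, a KRAB protein with 15 fingers whose mouse counterpart represses a placental Igf2 transcript, is in cluster 6 (chr19:36916329-36998700). It had 28, 23 and 42 counts in the control libraries, 5, 2 and 2 in the Ako-3 and 14, 12 and 13 in the Mko-3 libraries. The 3 groups did not overlap, with Ako-3 lowest and Mko-3 between. The log2 fold change in Ako-3 cells was -3.36 ± 0.47 (SE; adjusted p = 6.68e-06). At such counts the size is loosely fixed, and the ratio of summed counts scaled to library size was 10.6, with an exact 95% interval of 5.37 to 24.0 that covers counting error only. Of its transcript 13.0% of the 100-base stretches also occur in another gene.

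ZNF331, an imprinted gene at the far end of cluster 8 (chr19:53519527-53580269), had 57, 26 and 29 counts in control, 3, 7 and 1 in Ako-3 and 24, 28 and 23 in Mko-3 libraries. All Ako-3 libraries lay below all others, while the Mko-3 libraries reached just under control. Its log2 fold change was -3.35 ± 0.48 in Ako-3 cells (SE; adjusted p = 7.38e-06) and -0.54 ± 0.30 in Mko-3 cells (adjusted p = 0.140). ZNF528 and ZNF880 are close neighbours within cluster 8, and their promoter windows are among those printed above. ZNF528 had 31, 14 and 34 counts in control and 2, 3 and 5 in Ako-3 libraries, and ZNF880 56, 34 and 41 and 8, 7 and 16. In both genes each Ako-3 library lay below each control library. On the log2 scale the changes were -2.97 ± 0.49 (adjusted p = 3.76e-05) and -2.10 ± 0.35 (adjusted p = 5.04e-05). ZNF610, which starts just before ZNF880, was not tested and had 20, 8 and 26 counts in control and 5, 4 and 5 in Ako-3 libraries; it is named here after its values were seen.

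ZNF570, in cluster 6 beside ZNF569, fell by 2.22 on the log2 scale, from 0.296 ± 0.0728 to 0.0630 ± 0.0214 FPKM (SD, n = 3). ZNF676, in cluster 4 and without a KRAB box by either pattern, had 21, 15 and 22 counts in control and 7, 4 and 6 in Ako-3 libraries, a log2 fold change of -1.79 ± 0.44. ZNF701 in cluster 8 changed by -1.75 ± 0.45, and its control libraries, at 28, 12 and 36 counts, were spread over more than the distance to the Ako-3 libraries, at 3, 11 and 9. ZNF699, the human relative of the fly gene hangover, is in cluster 2 of 19p and fell from 0.953 ± 0.114 to 0.288 ± 0.0388 FPKM, a log2 fold change of -1.73 ± 0.26 (adjusted p = 1.28e-05). ZNF548 in cluster 9 was the most expressed of the 10, at 1.73, 1.18 and 1.45 FPKM in the control and 0.441, 0.554 and 0.428 in the Ako-3 libraries, which lies -1.62 ± 0.18 from control on the log2 scale (adjusted p = 4.41e-07). ZNF844, in cluster 3, changed by -1.58 ± 0.44 and was no longer called without control replicate 1, at -1.11 and an adjusted p of 0.0724. Of its transcript, 44.4% of the 100-base stretches also occur in another gene, so that reads could not be assigned with certainty.

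**Figure D3:**
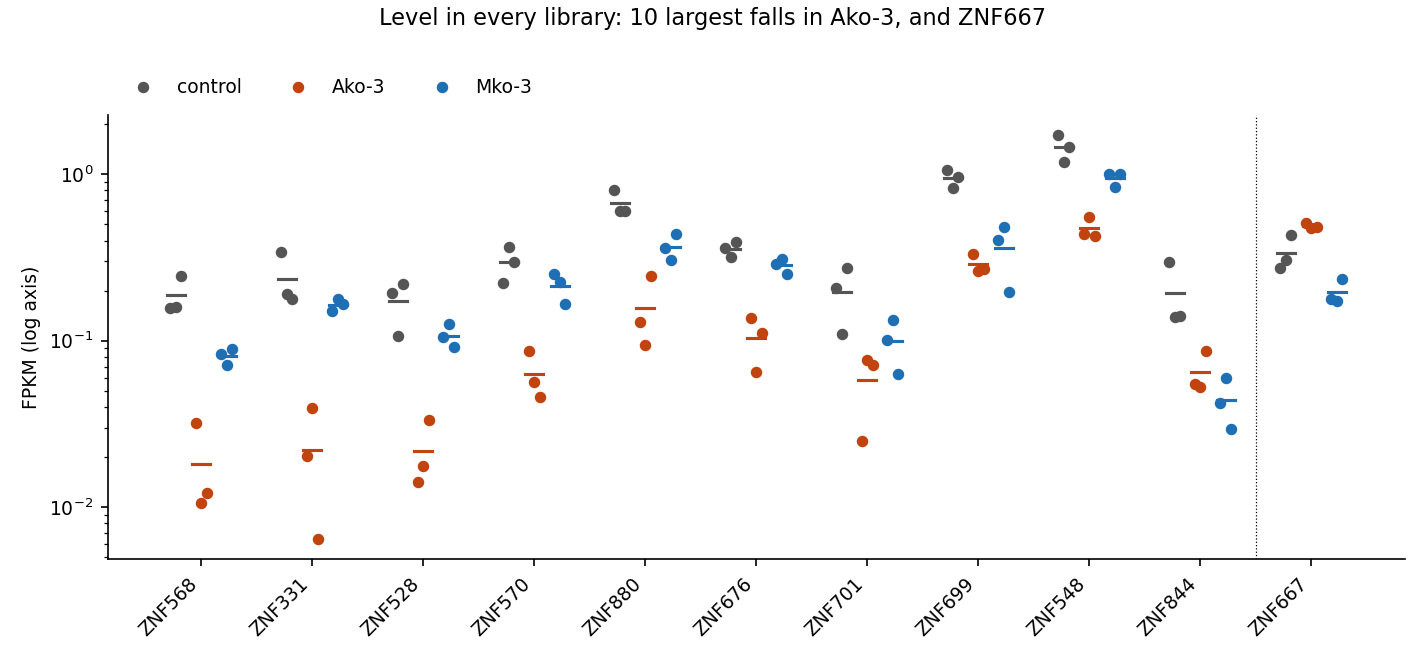
FPKM in each of the 9 libraries (log axis) for the 10 members with the largest falls in Ako-3 cells and, right of the dotted line, for ZNF667. Points are libraries and bars group means; in all 10 genes the Ako-3 points lie below the control points, and ZNF667 is the only 1 of the 11 in which they lie above.

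In all 28 called members the 3 Ako-3 libraries lay below the 3 control libraries, as they did in 96.7% of the 789 genes called lower in the whole table, and 18 of the 28 were called in each of the 6 fits that left out 1 library, beside 61.1% of those genes. On both counts the members were thus much like other called genes. Their transcripts had a median GC content of 41.9%, close to the 42.2% of all members tested, their proteins a median of 12.5 fingers, and 27 of 28 held a KRAB box, beside 162 of the 194 members tested. By the stricter pattern it was 20 of 28 beside 130 of 194. Their median level in control was 0.462 FPKM, below the 1.20 FPKM of the members tested. The 10 that 1 library decided all stayed below control. Without control replicate 1, ZNF844 and ZNF615 had log2 fold changes of -1.11 and -0.96. Without control replicate 2, ZNF285 was at -0.98. Without control replicate 3, ZNF304, ZNF320, ZNF585A and ZNF805 lay between -0.99 and -0.92. Ako-3 replicate 3 decided ZNF304, ZNF615, ZNF284, ZNF285 and ZNF350, at -0.87, -0.84, -1.04, -0.83 and -1.06. Ako-3 replicate 1 decided ZNF285 and ZNF772, at -0.98 and -0.89, and Ako-3 replicate 2 decided ZNF805, at -0.94.

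Cluster 6 had the lowest median. Of its 19 tested members 18 were below control and 7 were called lower, with a median log2 fold change of -0.86: ZNF568 and ZNF570, described above, and ZNF529, ZNF382, ZNF850, ZNF585A and ZNF569. ZNF850, with 29 fingers, had 80, 44 and 52 counts in control and 27, 20 and 20 in Ako-3 libraries. Of the 7, all but ZNF568 overlap a gene on the opposite strand, ZNF529 and ZNF382 each other, ZNF569 and ZNF570 each other, ZNF850 with ZNF567 and ZNF585A with ZNF420, and the library protocol in the labels does not mark strand, so that reads of such partners cannot be told apart where they overlap. The cluster also holds zinc finger genes with other names, of which ZFP14, ZFP30, ZFP82 and HKR1 were tested. All 4 passed the adjusted p, with log2 fold changes of -1.08 ± 0.13, -0.72 ± 0.16, -1.48 ± 0.26 and -1.33 ± 0.16 (SE), and ZFP14, ZFP82 and HKR1 were called lower. They were named after their values were seen. Cluster 8 had 7 calls among 32 tested members and a median of -0.44, cluster 9 had 9 among 51 and a median of -0.39, and cluster 7 had 2 among 20, ZNF284 and ZNF285. Among the 27 tested members of cluster 4, whose transcripts are the poorest in GC, 1 was called and the median was -0.11.

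All 9 calls of cluster 9 lay in a stretch of 756 kb from ZNF264 to ZNF256 (chr19:57191500-57947675), which was delimited after the values were seen. Of its 30 members 25 were tested, 22 of them were below control, 18 were lower with adjusted p alone and 1, ZNF587B, was higher. ZNF264, the first of them, had 340, 203 and 310 counts in control, 104, 123 and 107 in Ako-3 and 209, 217 and 180 in Mko-3 libraries. The change of -1.39 ± 0.14 on the log2 scale (adjusted p = 7.09e-08) had the smallest SE of the 9. ZNF304, known to recruit the TRIM28 complex to tumour suppressor genes, stood at 1.05, 1.11 and 1.13 FPKM in the control, 0.576, 0.620 and 0.423 in the Ako-3 and 1.23, 0.931 and 1.28 in the Mko-3 libraries. Only the Ako-3 libraries were set apart. Its log2 fold change of -1.02 ± 0.20 was just past the threshold, and it fell short of it, at -0.99 and -0.87, without control replicate 3 and without Ako-3 replicate 3. The other calls were ZNF805, ZNF543, ZNF548, ZNF772, ZNF419, ZNF550 and ZNF256. Between them lay members whose fold change was near or above 0, such as ZNF17, at 0.10 ± 0.22 (SE), and ZNF551, at 0.23 ± 0.22. ZIK1 and TRAPPC2B, which lie in the stretch and are not members, were also called lower, at -3.12 ± 0.59 and -1.39 ± 0.26. They were named after their values were seen. In the same stretch, Mko-3 cells had 1 call, ZNF805, and a median log2 fold change of -0.31, against -0.72 in Ako-3 cells. The stretch was bounded by members called in Ako-3 cells, and that choice favours a lower median and more calls in them. Over all of cluster 9 the medians were -0.21 in Mko-3 and -0.39 in Ako-3 cells.

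**Figure D4:**
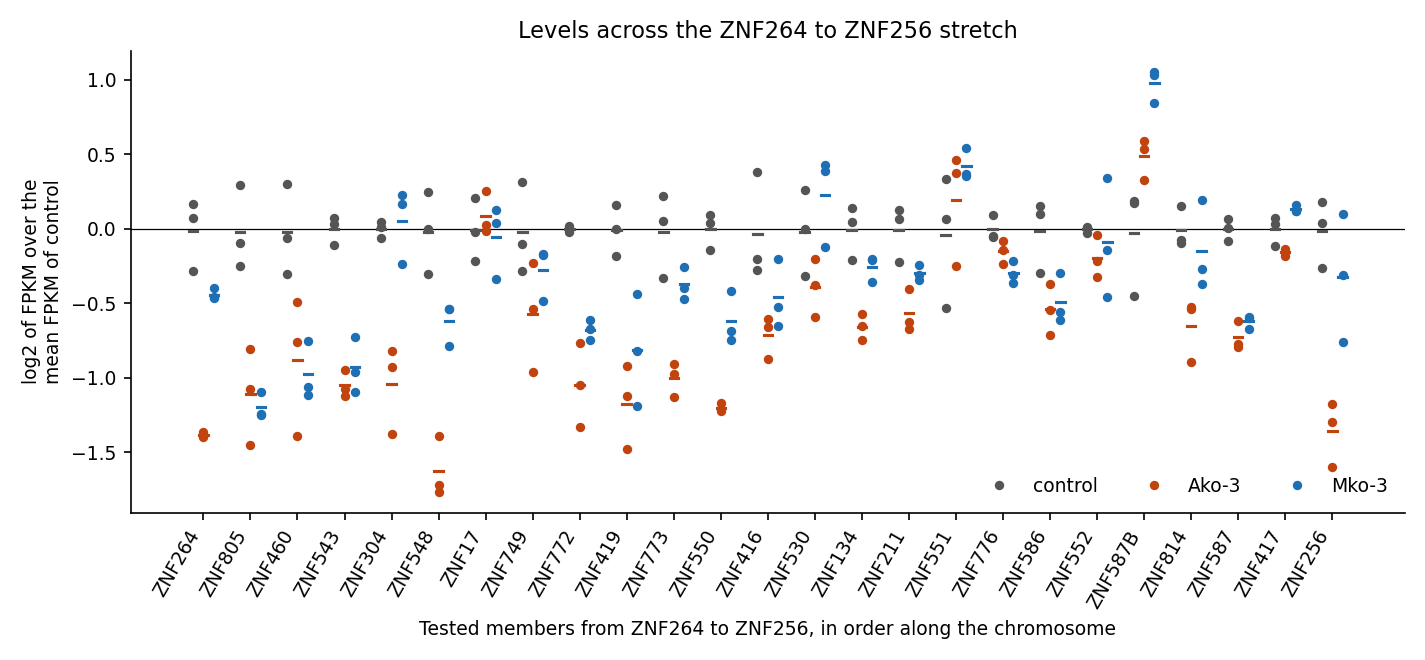
log2 of FPKM over the mean FPKM of the control libraries, for the 25 tested members from ZNF264 to ZNF256 in order along the chromosome. Points are libraries and bars group means; in the 9 called members the Ako-3 points lie below all control points, and in ZNF587B they lie above.

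Of the 13 members that were higher in Ako-3 cells at adjusted p alone, 4 held a KRAB box, against 74 of the 85 that were lower by the same measure, and no test compared them. Their median GC content was 57.8%, against 41.9%, and their median level in control 2.04 FPKM, against 1.37 FPKM. ZNF428, with 1 finger, rose from 9.42 ± 0.946 to 15.8 ± 0.598 FPKM (SD, n = 3), a log2 fold change of 0.74 ± 0.10 (adjusted p = 2.83e-06), and ZNF444 from 23.4 ± 1.15 to 33.4 ± 1.51, of 0.51 ± 0.06 (adjusted p = 1.06e-06). Both fell short of the threshold on fold. Over the 108 tested 19q members with a KRAB box the median change was -0.51 on the log2 scale, with 25 called lower. Over the 26 without, it was 0.09 and none was called. On 19p it was -0.26 over 54 tested members with the box, with 2 called lower, and -0.13 over 6 without, with 1 called. Among ZNF genes on other chromosomes with a KRAB box, it was -0.06 over 90 genes and 1 was called lower. Their transcripts have a GC content like that of the 19q members with the box (42.3% against 42.0% as medians). That of the 19q members without was 62.5%. The median level, as log2 of counts scaled to library size, was 2.03 for 19q members with the box and 3.74 without. For the genes elsewhere with the box it was 3.34. The part of level in these contrasts was not tested. After the median of all tested genes of like GC content, in 10 equal bins, was taken off, an adjustment added after the data were seen, the medians were -0.41 on 19q, -0.18 on 19p and -0.02 elsewhere.

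In Mko-3 cells fewer members passed the threshold, and their share was that of all genes. Of 199 tested members 14 were called lower, 7.04% beside 7.22% of all 15745 genes tested. None was called higher, beside 3.82%, and none by DESeq2 or at an unadjusted p under 0.05 with the same fold. Here too, a member that passed the filter only through its control libraries had to be lower. The calls were 10 of 139 on 19q, or 7.19%, and 4 of 60 on 19p, or 6.67%, against 4 lower and 1 higher of 218 ZNF genes on other chromosomes. The other protein-coding genes of the arms were called lower more often, 57 of 365 on 19q, or 15.6%, and 37 of 372 on 19p, or 9.95%. On each arm 15 of these genes were called higher. The median log2 fold change was -0.26 on 19q, -0.06 on 19p (above 0, at 0.00471, once adjusted for GC content as above), -0.01 elsewhere and -0.09 for the other protein-coding genes of 19q. At adjusted p alone 63 members were lower, 31.7% beside 27.1%, and 11 higher, 5.53% beside 26.9%.

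The largest fall was that of ZNF844, from 37, 14 and 17 counts in control to 5, 7 and 3 in Mko-3 libraries, a difference of -2.12 ± 0.47 on the log2 scale (SE; adjusted p = 7.29e-04), with the limit on its reads given above. ZNF320 of cluster 8 had 34, 25 and 48 counts in control and 14, 10 and 8 in Mko-3 libraries (-1.70 ± 0.35, adjusted p = 3.18e-04). ZNF382 of cluster 6 had 41, 21 and 45 and 12, 17 and 6 (-1.57 ± 0.37, adjusted p = 0.00104). In these 3 genes the groups did not overlap. ZNF585A, ZNF699, ZNF568 and ZNF805 were called as they had been in the APOB knockout, with log2 fold changes of -1.54 ± 0.29, -1.39 ± 0.28, -1.21 ± 0.34 and -1.21 ± 0.21, and ZNF350, a partner of BRCA1, made the eighth gene called in both, at -1.33 ± 0.39 in Ako-3 and -1.09 ± 0.34 in Mko-3 cells. As both comparisons use the same control libraries, the 8 shared calls, of 28 and of 14, are not independent. Single libraries decided some of the calls in Mko-3 cells: ZNF573, at -1.37 ± 0.42, was not called without control replicate 3 or Mko-3 replicate 3, ZNF442, at -1.34 ± 0.41, not without Mko-3 replicate 1, ZNF568 not without control replicate 3, and ZNF471, at -1.33 ± 0.52, was called in 1 of the 6 such fits. ZNF471 had 27, 5 and 36 counts in control libraries, and its groups overlapped. The values without those libraries were -0.98 and -0.98 for ZNF573, -1.18 for ZNF442 and -0.97 for ZNF568, and ranged from -1.59 to -0.85 for ZNF471 in the 5 fits that lost the call. ZNF350 was not called without control replicate 1, at -0.86 in Mko-3 cells, nor without Ako-3 replicate 3, at -1.06 in Ako-3 cells. In Ako-3 cells ZNF585A and ZNF805 were not called without control replicate 3, at -0.99 and -0.92.

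ZNF524, ZNF580 and ZNF581, near the start of cluster 9, were lower in Mko-3 cells at higher levels. They were grouped after their values were seen. Other genes nearby did not all move with them in Mko-3 cells. NAT14 was at -0.38 ± 0.09 (SE), CCDC106 at -0.18 ± 0.14 and U2AF2 at 0.67 ± 0.07. ZNF524, a protein with 4 fingers that binds telomeres, stood at 11.3, 9.05 and 10.7 FPKM in the control, 7.36, 8.30 and 6.49 in the Ako-3 and 5.28, 4.94 and 4.63 in the Mko-3 libraries. Every Mko-3 library lay below every other. The log2 fold change was -1.08 ± 0.13 in Mko-3 cells (adjusted p = 7.17e-07) and -0.49 ± 0.13 in Ako-3 cells (adjusted p = 0.00374). ZNF580 and ZNF581 changed by -1.04 ± 0.16 and -0.82 ± 0.12 in Mko-3 cells. These 2 overlap each other and CCDC106 on the same strand, and ZNF524 overlaps FIZ1 on the opposite strand, which changed by 0.36 ± 0.11 in Mko-3 cells, so that reads cannot be told apart where such genes overlap. ZNF581 was not called, and ZNF580 is named as 1 of the 14 calls together with ZNF429 of cluster 4, at -1.15 ± 0.15. Without control replicate 1 or Mko-3 replicate 3, ZNF580 was at -0.91 or -0.93 and not called. All the tested members of cluster 6, 20 of 20, were below control in Mko-3 cells, with a median of -0.58, 11 of them with adjusted p alone, and 4 were called.

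Fitted directly, the 2 clones differed in 13 of 191 tested members. In Mko-3 against Ako-3 cells 12 were called higher, 6.28% beside 2.26% of all 15528 genes tested, and 1 was called lower, 0.524% beside 3.47%. A member that passed the filter on low counts only through its Mko-3 libraries had to be higher in them. ZNF331, ZNF568 and ZNF528 were such members. With at least 10 counts asked of every library, 6 members were called. The median log2 fold change was 0.18 on 19q and 0.16 on 19p, against 0.02 for ZNF genes elsewhere and -0.26 for the other protein-coding genes of 19q. At adjusted p alone, 47 members were higher, 24.6% beside 21.1%, and 14 lower, 7.33% beside 20.6%.

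ZNF331 differed most, by 2.81 ± 0.48 on the log2 scale (SE; adjusted p = 9.55e-07), followed by ZNF528, at 2.26 ± 0.53 (adjusted p = 3.25e-04), ZNF568, at 2.14 ± 0.57 (adjusted p = 0.00148), and ZNF570, at 1.76 ± 0.42 (adjusted p = 3.57e-04), whose counts are given above or in the plot of library levels. ZNF850 had 71, 55 and 40 counts in Mko-3 libraries and differed by 1.37 ± 0.26 (adjusted p = 1.29e-05), its level in Mko-3 cells being that of control within the spread, at -0.06 ± 0.23. ZNF615 of cluster 8 and ZNF304 and ZNF256 of cluster 9 differed by 1.16 ± 0.30, 1.07 ± 0.20 and 1.05 ± 0.26. These 3 were below the threshold on fold without Ako-3 replicate 3, at 0.96, 0.92 and 0.94, and ZNF304 and ZNF256 also without Mko-3 replicate 3, at 0.99 and 0.82. The remaining calls were ZNF649, at 1.19 ± 0.34, and ZNF676, ZNF577 and ZNF880. Without Ako-3 replicate 2 these last 3 were not called, at 1.19, 0.99 and 0.94, and ZNF577 also missed the adjusted p without Mko-3 replicate 1 or 3, at 1.17 and 1.15. The 1 member called lower was ZNF667, a KRAB protein with 14 fingers in cluster 9. It had 45, 41 and 69 counts in control, 74, 84 and 74 in Ako-3 and 28, 27 and 32 in Mko-3 libraries, so that control lay between the clones. Its log2 fold change was -1.33 ± 0.22 between the clones (adjusted p = 7.45e-07), 0.53 ± 0.21 in Ako-3 and -0.80 ± 0.26 in Mko-3 cells against control.

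**Figure D5:**
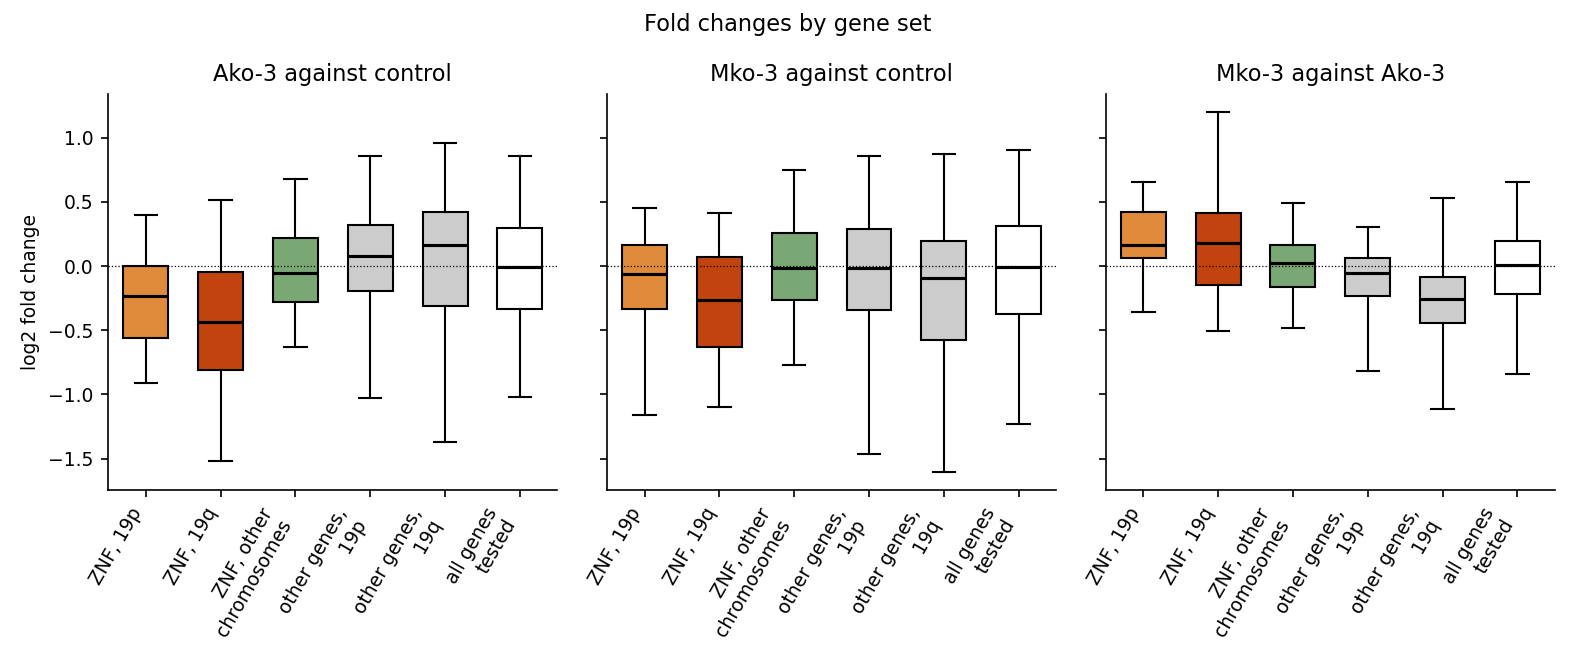
log2 fold changes of the tested genes of 6 sets in the 3 comparisons. Boxes span the middle 50% of genes, the line is the median and whiskers reach the 5th and 95th percentile; the medians of ZNF genes on 19q lie lowest in both comparisons with control, and in Mko-3 against Ako-3 the ZNF medians of both arms lie above those of the other protein-coding genes of the same arms, while the boxes overlap.

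A few members with known targets were looked up for their roles and not by the rule that named the others. ZNF91 and ZNF93, both in cluster 4, repress SVA and L1 retrotransposons. ZNF91 stood at 4.23 ± 0.258 FPKM (SD, n = 3) in control, 2.91 ± 0.268 in Ako-3 and 3.01 ± 0.119 in Mko-3 cells, changing by -0.55 ± 0.09 (adjusted p = 2.92e-05) and -0.50 ± 0.08 on the log2 scale (adjusted p = 2.43e-05). ZNF93 was lower in Ako-3 cells, at -0.74 ± 0.16 (adjusted p = 7.19e-04), and at 0.00 ± 0.15 in Mko-3 cells (adjusted p = 0.985). The difference between the clones was 0.75 ± 0.16 (adjusted p = 4.97e-05). ZNF274, which binds the 3′ ends of zinc finger genes together with SETDB1, changed by -0.40 ± 0.10 in Ako-3 (adjusted p = 0.00214) and -0.18 ± 0.09 in Mko-3 cells (adjusted p = 0.105). The paralogs ZNF417 and ZNF587, repressors of HERV-K, share part of their sequence. ZNF587 was lower in both, at -0.73 ± 0.10 and -0.63 ± 0.10 (adjusted p = 4.62e-06 and 1.12e-05), and ZNF417 was at -0.16 ± 0.16 and 0.12 ± 0.15 (adjusted p = 0.420 and 0.513). None of these 5 reached the threshold on fold.

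ZNF114, outside the clusters, did not pass the filter on low counts and is named after its values were seen. It had 13, 10 and 9 counts in control, 0, 0 and 0 in Ako-3 and 0, 1 and 1 in Mko-3 libraries. With 3 counts over the group taken as the floor, it was at least 11.0-fold lower in Ako-3 cells, and the ratio of control to Mko-3 counts was 15.6 (exact 95% interval 3.98 to 134, counting error only). Fitted without the filter, its adjusted p was 4.76e-06 in Ako-3 and 3.26e-04 in Mko-3 cells.

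Many genes of the KRAB corepressor machinery were higher in each clone. Of 22 genes listed for it, which encode TRIM28, SETDB1 and its cofactors, HP1 proteins, parts of the NuRD and HUSH complexes, chromatin remodellers and DNA methylation proteins, 15 rose and 1 fell in the APOB knockout at adjusted p alone, with a median log2 fold change of 0.37, and 15 rose and 2 fell in the MTTP knockout, with a median of 0.35. The background for higher was 25.5% and 26.9% of all genes. TRIM28, the scaffold that KRAB boxes bind, rose from 80.2 ± 11.5 FPKM (SD, n = 3) to 127 ± 4.44 in Ako-3 and 113 ± 5.65 in Mko-3 cells, by 0.67 ± 0.08 and 0.48 ± 0.08 on the log2 scale (adjusted p = 2.70e-06 and 1.17e-04). The NuRD members did not all move alike. CHD4 and HDAC1 rose in both clones, by 0.99 ± 0.10 and 0.52 ± 0.07 in Ako-3 (adjusted p = 1.20e-07 and 2.66e-06) and by 0.72 ± 0.10 and 0.89 ± 0.07 in Mko-3 cells (adjusted p = 3.12e-06 and 5.24e-10). CHD3 was at 0.59 ± 0.07 in Ako-3 (adjusted p = 3.89e-07) and -0.04 ± 0.07 in Mko-3 cells (adjusted p = 0.662), a difference between the clones of -0.63 ± 0.05 (adjusted p = 6.34e-17). HDAC2 was at 0.11 ± 0.07 in Ako-3 (adjusted p = 0.222) and 0.33 ± 0.07 in Mko-3 cells (adjusted p = 6.41e-04). SETDB1 was at -0.12 ± 0.09 in Ako-3 (adjusted p = 0.284) and -0.11 ± 0.09 in Mko-3 cells (adjusted p = 0.323). The genes that fell were ATRX, at -0.29 ± 0.09 in Ako-3 and -0.20 ± 0.08 in Mko-3 cells, and ATF7IP, a cofactor of SETDB1, at -0.36 ± 0.08 in Mko-3 cells. Of the HUSH genes, MPHOSPH8 rose in both clones, by 0.37 ± 0.10 and 0.61 ± 0.10, while TASOR and PPHLN1 did not pass the adjusted p in either. UHRF1, which guides DNA methylation after replication, was the only 1 of the 22 called, at 2.08 ± 0.28 and 2.25 ± 0.29. Whether these levels bear on the zinc finger genes was not tested.

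Of the 34 members called lower in either clone, 23 overlap another gene of the table and 16 a gene on the opposite strand, and 5 share more than 10% of their 100-base transcript stretches with another gene. The values of those genes hold only as far as the reads were assigned to the right one.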

How the data were processed

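Poly(A) RNA of 9 Huh-7, Ako-3 and Mko-3 cultures was sequenced. The deposited table holds raw counts per gene, which the authors made with HISAT2 2.0.5 and featureCounts 1.5.0-p3 per the submitters' processing notes, and the deposited FPKM table holds the authors' length- and depth-normalised values. The handling of reads that map to several places and the annotation release were not given in the sources used here, and the second strand was made with dTTP, so that strand was not marked. Gene positions lay within 10 kb of GENCODE 44 on hg38 for 249 of 249 members. Total counts were 14638727 to 20179760 per library, so that members with few counts are measured loosely. Counts were filtered with filterByExpr (minimum count 10), scaled by TMM and tested by the edgeR quasi-likelihood test (edgeR 4.0.16, R 4.3.3) on the 2 groups of each comparison, with Benjamini-Hochberg adjustment over all genes tested. Calls needed a change of 1 or more on the log2 scale and an adjusted p not above 0.05. FPKM values served for levels and were not tested. The arms were split at 26000000 bases and clusters built as described. Fingers, KRAB boxes and SCAN domains were found by patterns in translated canonical GENCODE transcripts, and promoter windows came from RefSeq. The members named were the 10 of highest level in control, the highest of each cluster, up to 10 called rises and 10 called falls against control by size, up to 8 called in each direction between the clones by adjusted p, and up to 5 called with at most 3 counts in every library of a group, of which there was none, and up to 5 of the corepressor list. All other genes were named after their values were seen. Groups came from the labels, and no library was left out. Replicates of a group differed by more than sampling noise. The fits were tested on simulated data. Alternatives were DESeq2 1.42.0, other filters, adjusted p alone, a replicate block, leaving out each library and, added after the data were seen, centring by GC content and a stricter KRAB pattern. Members and lists were chosen with earlier results of these data known.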

Additional observations from a re-analysis of the deposited data

Results flagged for a closer look

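The 2 clones differed in 13 zinc finger genes of chromosome 19 by the direct test between Mko-3 and Ako-3 cells (edgeR, adjusted p not above 0.05 and a difference of 1 or more on the log2 scale). The log2 fold change of Mko-3 against Ako-3 cells was 2.81 for ZNF331, 2.26 for ZNF528, 2.14 for ZNF568, 1.76 for ZNF570, 1.45 for ZNF676, 1.37 for ZNF850, 1.25 for ZNF577, 1.22 for ZNF880, 1.19 for ZNF649, 1.16 for ZNF615, 1.07 for ZNF304 and 1.05 for ZNF256. It was -1.33 for ZNF667. Each knockout was 1 clone, so that the deleted gene and the clone cannot be told apart here. No group had the 4 samples needed to look for a library far from the others.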

How the results depend on the processing

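Members called numbered 98, 74 and 61 in Ako-3 against control, Mko-3 against control and Mko-3 against Ako-3 by adjusted p alone. With at least 10 counts asked of every library they numbered 19, 8 and 6, beside 28, 14 and 13 in the main fits. Leaving out 1 library gave 26 to 36, 12 to 21 and 11 to 15. The replicate numbers share only a number, since libraries of 1 number deviated together with correlations of -0.10 to 0.08, and the replicate block gave 28, 14 and 13 calls, as without it. For Ako-3 against control, the 19p median was -0.28 by DESeq2, -0.26 without the filter, -0.18 after GC centring and -0.27 to -0.18 without 1 library, and the 19q median -0.49, -0.48 and, without 1 library, -0.52 to -0.43. ZNF genes elsewhere ranged over -0.0704 to -0.0108 without 1 library. For Mko-3 against control, the 19p median was -0.0877 by DESeq2, 0.00471 after GC centring and -0.12 to -0.0103 without 1 library. For Mko-3 against Ako-3, the 19p median was 0.13 after GC centring, the 19q median 0.20 by DESeq2, 0.21 without the filter, 0.12 after GC centring and 0.15 to 0.21 without 1 library, and that of ZNF genes elsewhere -0.00566, 3.64e-04, -0.00208 and -0.00794 to 0.0344. Among named members, 12 values changed sign, all of changes not called: in Mko-3 against control ZNF714 (0.0111 without the filter and -0.0754 to 0.0145 without 1 library) and, without 1 library, ZNF304 (-0.0212 to 0.19), ZNF787 (-0.0541 to 0.0745) and ZNF850 (-0.23 to 0.17), and in Mko-3 against Ako-3 ZNF585A (-0.42 to 0.16) and ZNF805 (-0.26 to 0.0563). Of the called values of the members named by the rule, under all alternatives, 430 kept the call and 30 lost it with the direction kept. The cause was not tested. The filter kept members with about 10 counts or more in at least as many libraries as a group holds. DESeq2 was run without it and fitted 236 members in Ako-3 against control. Its own default filter on low means still applied when p was adjusted.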
